A study of Mus musculus with 9 samples.

Results

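Chtf8, Chtf18, Dscc1 and Rfc1 to Rfc5 encode the subunits of replication factor C (RFC) and of its CTF18 variant, the protein complexes that load a sliding clamp onto DNA. The 8 genes were found by symbol among the 42454 gene names counted in each tumour, and none of them had a second row. The members were chosen by the CPM values of Chtf8, which were much lower in all CD43-KO tumours but replicate 2, so the Chtf8 difference between the groups is a description and was not tested. The other 7 genes were taken as the partners of Chtf8 and were tested.

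The tumours had grown in C57BL/6J mice from MC38, a mouse line of colorectal carcinoma, and were collected on day 21 after inoculation. The 4 Vec tumours came from vector control cells and are labelled wild type, and the 5 CD43-KO tumours came from MC38 cells lacking CD43, which is encoded by Spn. Both groups share the cell line, the host strain and the day, and whether the CD43-KO cells were 1 clone is not given in the sources used here. Each library holds RNA of whole tumour tissue, in which fewer cells of a type and less RNA per cell cannot be told apart. The labels do not say that tumours of a group came from separate cell cultures, so p-values measure the spread between these tumours only.

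RFC is a ring of 1 large subunit, RFC1, and the small subunits RFC2 to RFC5, and it uses ATP to open the clamp PCNA and close it around DNA at primer ends. In the CTF18 complex CHTF18 takes the place of RFC1 and is joined by DSCC1 and CHTF8, which form a module that contacts DNA polymerase epsilon. The CTF18 complex is known for its part in leading strand replication and in linking sister chromatids as they are made.

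The Chtf8 row covers a locus with 2 reading frames, and the sequences below show where these meet and how the annotated transcripts differ. GENCODE M21 (GRCm38) has 2 gene entries named Chtf8 (ENSMUSG00000046691.14 and ENSMUSG00000117748.1), with 6 transcripts between chr8:106883863-106893601 on the minus strand. Chtf8-204 has 4 exons and 2931 exon bases, of which 363 (12.4%) code for the 121 residues of the CTF18 subunit. Chtf8-205, the coding transcript of the second entry, has 2 exons and 2730 bases, and its own frame of 1599 bases codes for another, longer protein. RefSeq (GRCm38.p6) names that protein's gene Derpc and gives it the same start and end as Chtf8. Where the frames meet, the start codon of the second frame overlaps the stop codon of the Chtf8 frame, and the capitals in the first line mark both, at chr8:106886302-106886305. In the next 2 lines, the lower case marks the end of the shared first exon, whose last base is 106893501, and the capitals mark the exon it is joined to. The last line is the stretch between the GENCODE starts of Chtf8 and of its neighbour Utp4, 34 bases with a GC content of 79.4%, at chr8:106893602-106893635 and written on the plus strand.
Junction of the frames, chr8:106886289-106886318, minus strand: tccccaagaaagtATGAaagaaccccggat
Chtf8-204, first exon joined to the exon that starts at base 106887356: cggccgccattgcagTTTTTCAGTTGCATT
Chtf8-205, first exon joined to the exon that starts at base 106886526: cggccgccattgcagGGAATCCCTGTGCTG
Between the starts of Chtf8 and Utp4: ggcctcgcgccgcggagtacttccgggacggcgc

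All 2730 exon bases of Chtf8-205 also lie in Chtf8-204 (100%), so apart from its exon join no stretch of sequence belongs to the second frame alone. Derpc had a count of 0 in all 9 tumours. Of 6 pairs of names with the same RefSeq start and end, Chtf8 and Derpc included, 2 had 1 name at 0 in every tumour. Another 2 had both names at 0, and 2 had counts under both. How reads were shared between the names is not given, so the Chtf8 count is taken here as a level of the whole locus. Which of the transcripts or frames it came from cannot be told apart. The strand setting of the counting is not given in the sources used here. Has3, a hyaluronan synthase gene on the opposite strand, overlaps 352 (11.6%) of the 3036 exon bases of Chtf8 in GENCODE.

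**Figure D1:**
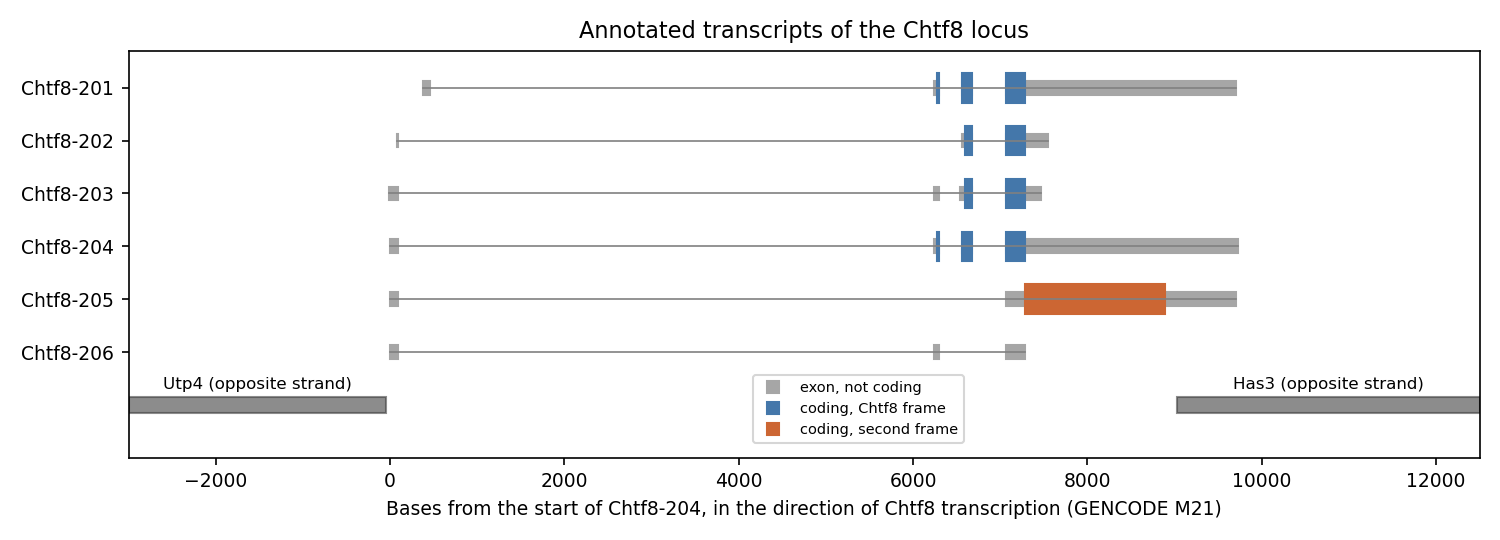
The annotated transcripts of the Chtf8 locus in GENCODE M21, plotted by distance in bases from the start of Chtf8-204. Narrow grey boxes are non-coding exon parts, blue boxes the Chtf8 frame of 363 bases in Chtf8-204, and the orange box the second frame of 1599 bases, which lies in the last exon that both long transcripts share.

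Chtf8 was high in the 4 Vec tumours and in CD43-KO replicate 2, and low in the other 4 CD43-KO tumours. In TMM-scaled CPM, the count of a gene relative to the depth of its library, Vec replicates 1 to 4 had 223, 187.4, 181.5 and 218 CPM of Chtf8. CD43-KO replicates 1 to 5 had 56.96, 177.6, 53.1, 56.8 and 38.3 CPM. The groups did not overlap, but CD43-KO replicate 2 lay just below the lowest Vec tumour, at 97.8% of its level.

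The raw Chtf8 counts were 14126, 12581, 12889 and 11821 in Vec and 3727, 11520, 2286, 3334 and 2269 in CD43-KO replicates 1 to 5, so even the lowest values rest on many counts. Mean levels of Chtf8 were 202.6 ± 21.1 CPM in Vec (SD, n = 4) against 76.6 ± 57 CPM in CD43-KO (SD, n = 5), a log2 fold change of -1.40. The 4 CD43-KO tumours other than replicate 2 had a mean of 51.3 ± 8.81 CPM (SD, n = 4). Against the Vec mean, Chtf8 stood at 28.1%, 26.2%, 28.02% and 18.9% in CD43-KO replicates 1, 3, 4 and 5, and at 87.7% in replicate 2. Without replicate 2 the log2 fold change was -1.98.

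Taking as the criterion a level under 50% of the lowest Vec tumour in CD43-KO replicates 1, 3, 4 and 5 and at least 75% of it in replicate 2, 2 of the 18243 genes tested had this shape (0.011%). They were Chtf8 and Tc2n, a C2 domain gene near its detection limit, with a mean of 0.24 CPM in Vec, 0.07 CPM in the 4 low tumours and 0.43 CPM in replicate 2. The criterion was written from the known Chtf8 values, so the count describes how rare the pattern was and tests nothing.

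The partners lie elsewhere in the genome (GENCODE M21, GRCm38), Chtf18 at chr17:25718926-25727419, Dscc1 at chr15:55076099-55090491 and Rfc4 at chr16:23113943-23127737. Chromosome 5 holds Rfc1 at chr5:65261850-65335670, Rfc5 at chr5:117378103-117389047, Rfc2 at chr5:134581366-134601805 and Rfc3 at chr5:151642756-151651242.

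The other clamp loader genes varied far less between tumours than Chtf8, which was chosen for its difference. The highest tumour exceeded the lowest 5.81-fold for Chtf8, and between 1.20-fold (Rfc1) and 1.58-fold (Rfc3) for the other 7 genes. The median was 1.55-fold over 2032 genes with a mean of at least 100 CPM, a level that these 7 did not reach. Of 18243 genes tested, edgeR's quasi-likelihood test with Benjamini-Hochberg adjustment called 0 (0%) at an adjusted p under 0.05. At an unadjusted p under 0.05 it called 2806 genes (15.4%), and DESeq2 called 612 (3.35%) at an adjusted p under 0.05. Among the 7 partners, edgeR and DESeq2 each called 0 at an adjusted p under 0.05, and 1, Rfc1, had an unadjusted edgeR p under 0.05. Their log2 fold changes were above 0 in 4 and below 0 in 3, with a median of 0.01, beside a median of 0.03 over all genes tested.

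**Figure D2:**
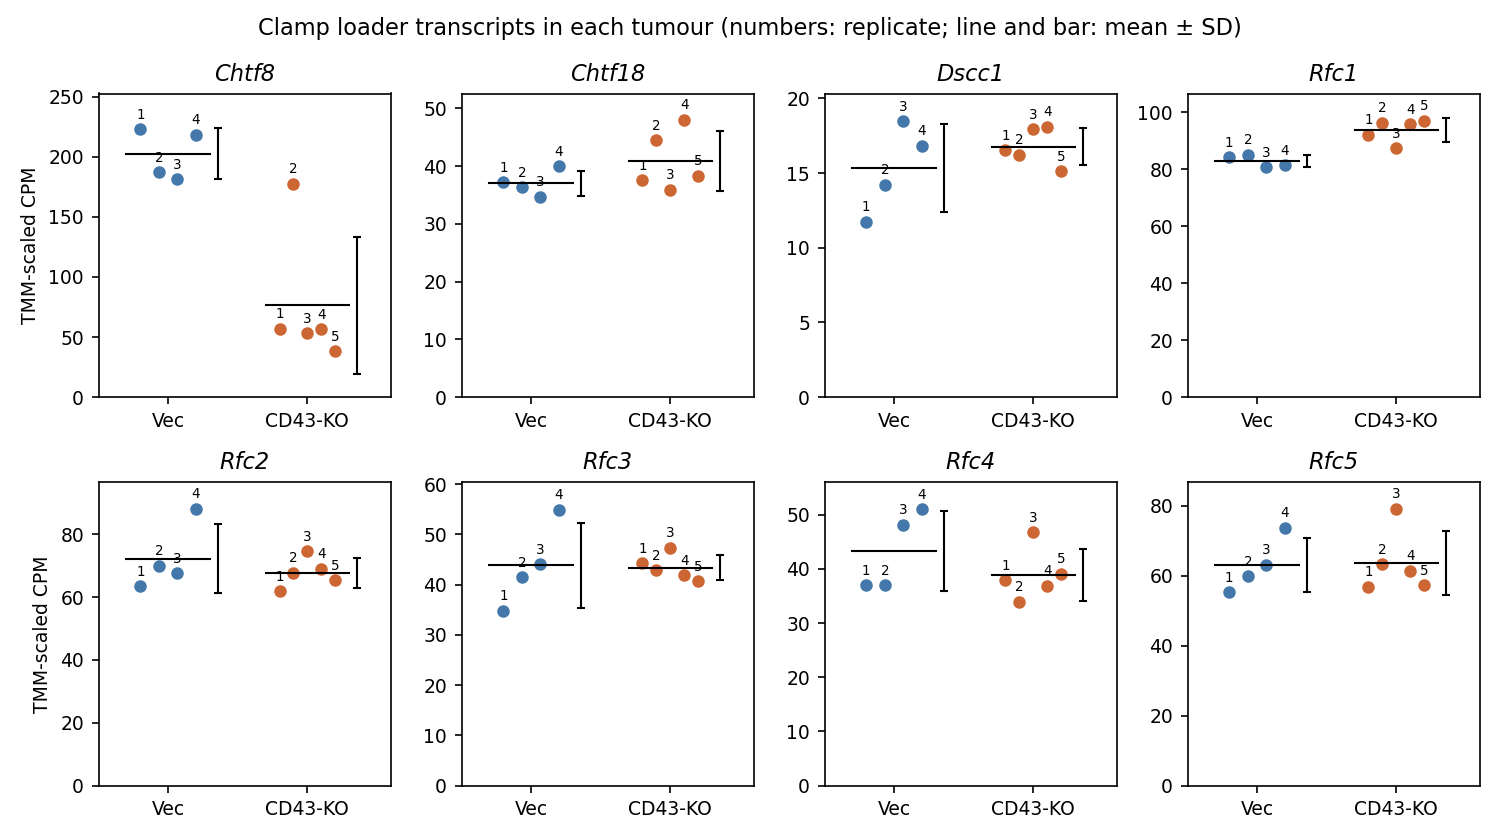
Level of each of the 8 genes in TMM-scaled CPM, with a point for each tumour numbered by replicate (4 Vec in blue, 5 CD43-KO in orange), a line at each group mean and a bar of ± SD beside it. Chtf8 spans 181.5 to 223 CPM in Vec and 38.3 to 56.96 CPM in the 4 low tumours, with CD43-KO replicate 2 at 177.6 CPM, while the highest and lowest tumours of the other genes differ by at most 1.58-fold.

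Chtf18 encodes the large subunit of the CTF18 complex, the ATPase that takes the place of RFC1. Its levels were 37.2, 36.3, 34.7 and 39.9 CPM in Vec replicates 1 to 4 and 37.5, 44.5, 35.9, 48.0 and 38.3 CPM in CD43-KO replicates 1 to 5. The groups overlapped, and CD43-KO replicates 4 and 2 were the highest of all tumours. The log2 fold change of Chtf18 was 0.14 ± 0.11 (SE), with an adjusted p of 0.528 in edgeR's quasi-likelihood test. The count of Chtf8 divided by that of Chtf18 was 5.16 to 6.00 in Vec, 3.99 in CD43-KO replicate 2 and 1.00 to 1.52 in the other 4 CD43-KO tumours. These ratios are between raw counts within a library and do not depend on how libraries were scaled.

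Dscc1, the third subunit found only in the CTF18 complex, had the lowest level of the 8 genes per kilobase of exon. It had 11.8, 14.2, 18.5 and 16.9 CPM in Vec replicates 1 to 4 and 16.5, 16.2, 17.9, 18.1 and 15.1 CPM in CD43-KO replicates 1 to 5. The Vec tumours held both the lowest and the highest value, so the CD43-KO range lay inside that of Vec. The log2 fold change of Dscc1 was 0.13 ± 0.14 (SE), with an adjusted p of 0.661 in edgeR's quasi-likelihood test.

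Rfc1, the large subunit of RFC itself, was the only one of the 7 partners whose groups did not overlap. Its levels were 84.3, 85.2, 80.7 and 81.4 CPM in Vec replicates 1 to 4 and 92.1, 96.4, 87.3, 95.9 and 97.1 CPM in CD43-KO replicates 1 to 5. Every CD43-KO tumour lay above every Vec tumour, by a small margin between CD43-KO replicate 3 and Vec replicate 2. Of all genes tested, 380 (2.08%) lay wholly above Vec in this way and 1019 (5.59%) were free of overlap in either direction, beside 1 of the 7 partners. The log2 fold change of Rfc1 was 0.18 ± 0.07 (SE), with an adjusted p of 0.285 in edgeR and 0.122 in DESeq2. A two-sided exact permutation test over the tumours gave an unadjusted p of 0.0159 for Rfc1, for which 7 genes were tested. The same exact test, after the mean log2 level of 20 replication and cell cycle genes was subtracted in each tumour, gave a difference of 0.12 and p = 0.238.

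The 4 small subunits, which RFC and the CTF18 complex share, overlapped between the groups. Rfc2 ranged from 63.4 to 88.1 CPM in Vec and from 61.9 to 74.6 CPM in CD43-KO, Rfc3 from 34.8 to 55.0 CPM and from 40.7 to 47.3 CPM. Rfc4 ranged from 37.0 to 51.0 CPM in Vec and from 34.0 to 46.7 CPM in CD43-KO, Rfc5 from 55.3 to 73.7 CPM and from 56.9 to 79.1 CPM. Vec replicate 4 was the highest Vec tumour for all 4 of them, and CD43-KO replicate 3 the highest CD43-KO tumour. Log2 fold changes lay between -0.15 ± 0.13 (SE) for Rfc4 and 0.01 ± 0.12 (SE) for Rfc5, and edgeR's adjusted p between 0.591 and 0.968.

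Per kilobase of exon, Chtf8 was the most abundant of the 8 genes in Vec tumours, at 66.7 ± 6.96 CPM per kilobase (SD, n = 4). Rfc4 came next at 28.2 ± 4.82, and the large subunit Rfc1 had 13.8 ± 0.36 CPM per kilobase. Rfc5 at 13.5 ± 1.67, Rfc3 at 12.1 ± 2.32 and Rfc2 at 11.5 ± 1.73 followed, with overlapping ranges over the Vec tumours. Chtf18 came after them at 6.99 ± 0.41 and Dscc1 was last at 3.46 ± 0.67 CPM per kilobase. The length used was the union of all GENCODE exons of a gene, from 1533 bases (Rfc4) to 6303 bases (Rfc2). The order therefore depends on the annotated exons. Before division by length, the Vec mean was 72.2 CPM for Rfc2 and 43.3 CPM for Rfc4. In the 4 low CD43-KO tumours Chtf8 had 12.6 to 18.8 CPM per kilobase, and in replicate 2 it had 58.5. Since the Chtf8 row may join 2 frames, these levels are taken for the locus and not for the CTF18 subunit alone.

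Chtf8 lies head to head with Utp4, a gene for ribosomal RNA processing on the opposite strand whose RefSeq start is 46 bases away. Utp4 had 79.8, 89.7, 80.2 and 92.3 CPM in Vec replicates 1 to 4 and 95.3, 95.6, 85.0, 100.9 and 94.7 CPM in CD43-KO replicates 1 to 5. The groups overlapped, and the 4 tumours low in Chtf8 were not low in Utp4. The log2 fold change of Utp4 was 0.14 ± 0.08 (SE), with an adjusted p of 0.427 in edgeR's quasi-likelihood test. Divided by the count of Utp4, that of Chtf8 was 2.09 to 2.80 in Vec, 1.86 in CD43-KO replicate 2 and 0.405 to 0.625 in the other 4.

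On the other side, Has3 was low throughout, at 2.27, 2.59, 2.52 and 0.96 CPM in Vec against 1.99, 1.39, 0.58, 1.69 and 3.26 CPM in CD43-KO replicates 1 to 5. The groups overlapped, and the Has3 count was at most 193 in any tumour. The part of reads from Has3 in the Chtf8 count was not tested.

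Of 10 neighbours tested (5 named genes on each side), edgeR and DESeq2 each called 0 at an adjusted p under 0.05, and 3 were lower at an unadjusted edgeR p under 0.05, beside 1392 (7.63%) of all genes tested. These were Vps4a, an ATPase of membrane remodelling, Pdf, a mitochondrial peptide deformylase, and Cog8, a subunit of a Golgi tethering complex. They lie next to each other, between 137675 and 155115 bases from Chtf8, and were lower in CD43-KO by log2 fold changes of -0.30 ± 0.09, -0.27 ± 0.10 and -0.26 ± 0.09 (SE). EdgeR's adjusted p was 0.210, 0.256 and 0.256 for them.

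Vps4a had 74.4 ± 6.27 CPM in Vec (SD, n = 4) against 60.6 ± 4.14 CPM in CD43-KO (SD, n = 5), and Cog8 had 54.6 ± 5.50 and 45.6 ± 2.66 CPM. For both, every CD43-KO tumour lay below every Vec tumour, replicate 2 included. That makes 2 of 10 neighbours, beside 639 (3.5%) of all genes tested. In GENCODE the annotated span of Pdf overlaps that of Vps4a on the opposite strand and that of Cog8 on the same strand, so their reads may not be separable and the 3 genes are not independent. The remaining 6 tested neighbours other than Utp4 had log2 fold changes between -0.23 (Has3) and 0.33 (Cdh3).

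**Figure D3:**
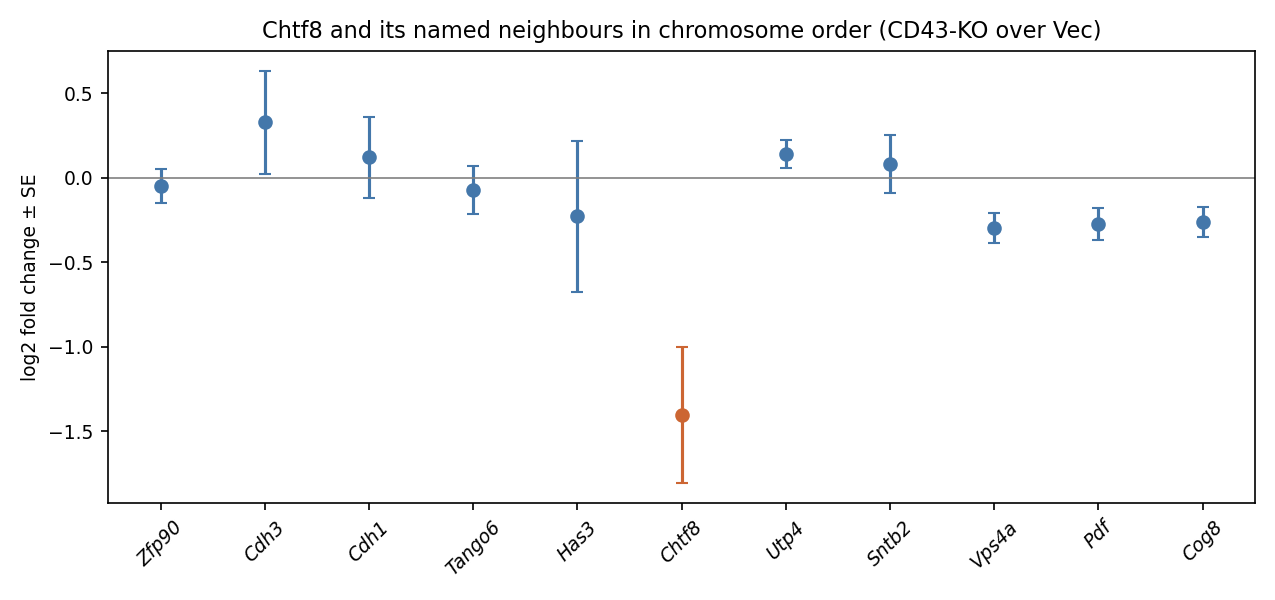
Log2 fold change (CD43-KO over Vec, edgeR) with its SE for Chtf8, in orange, and its 10 tested neighbours, in blue, in the order of their positions on chromosome 8. Chtf8 stands at -1.40 and its neighbours between -0.30 and 0.33, with Vps4a, Pdf and Cog8 all below 0 and a wide SE for the low gene Has3.

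RefSeq promoter windows (GRCm38.p6, from 250 bases before to 50 after the gene start) were found for 6 of the 8 members. The windows of Chtf8 and Utp4 overlap by 146 bases. The letters TTTCCCGC, TTTCGCGC, TTTGCCGC and TTTGGCGC, used here as spellings of an E2F motif and searched on both strands, were found at 2 positions in the window of Rfc3, which do not overlap, and at 0 in the other 5. Of 32851 windows, 744 (2.26%) held any of them. CCAAT, also on both strands, occurred 4 times for Chtf18, 2 times for Rfc1 and 1 time for Rfc3, and 0 times for Chtf8, Rfc4 and Rfc5, beside a share of 37.4% of all windows. These counts describe the letters in the windows and nothing else.

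In all, 5 lists of genes that work with the clamp loaders were counted in the same fit, and edgeR called 0 genes of any list at an adjusted p under 0.05. The smallest adjusted p over all genes tested was 0.0706. Numbers at an unadjusted p under 0.05 are given below, beside 1414 (7.75%) higher and 1392 (7.63%) lower over all genes. Directions in the lists stand beside 9859 log2 fold changes above 0 and 8384 below over all genes tested, with a median of 0.03. DESeq2 at an adjusted p under 0.05 called 247 genes (1.35%) higher and 365 (2%) lower over all genes, and its calls in the lists stand beside these shares. Over all genes tested, 1019 (5.59%) were free of overlap in either direction. In the lists these were 1 of 10 other clamp loaders and clamps (Hus1) and 1 of 21 cohesion genes (Wdhd1). So were 2 of 24 origin genes (Mcm10 and Recql4), and 0 in the other 2 lists.

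The other clamp loaders and clamps had 10 of 11 genes tested, since Hus1b, a paralogue of Hus1, was too low. Log2 fold changes were above 0 in 8 and below 0 in 2, with a median of 0.12, and 3 were higher and 0 lower at the unadjusted threshold. These 3 were Atad5, the clamp unloader, at 26.7 ± 4.50 CPM in Vec and 35.6 ± 5.82 in CD43-KO, the checkpoint loader Rad17 at 20.9 ± 1.999 and 24.5 ± 1.76, and the checkpoint clamp subunit Hus1 at 19.4 ± 2.94 and 25.7 ± 2.15 (SD, n = 4 and 5). Their edgeR adjusted p was 0.270, 0.303 and 0.212, in that order. Pcna, the clamp that RFC loads, had 388 ± 51.4 CPM in Vec against 416 ± 52.7 CPM in CD43-KO, a log2 fold change of 0.10.

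Among 21 genes of sister chromatid cohesion, the process the CTF18 complex is known for, 13 lay above 0 and 8 below, with a median of 0.08, and 4 were higher and 2 lower at the unadjusted threshold. DESeq2 called 2 of the 21 higher, Clspn, which encodes the checkpoint mediator claspin, and Wdhd1, which links the replicative helicase to DNA polymerase alpha. Clspn had 36.4, 36.9, 44.6 and 33.7 CPM in Vec against 49.8, 51.3, 43.96, 60.5 and 53.6 CPM in CD43-KO. Its groups overlapped through Vec replicate 3 and CD43-KO replicate 3. The log2 fold change of Clspn was 0.45 ± 0.12 (SE), with an adjusted p of 0.192 in edgeR and 0.0236 in DESeq2.

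Wdhd1 had 41.7, 42.1, 42.3 and 39.3 CPM in Vec against 48.4, 49.8, 48.7, 53.7 and 51.5 CPM in CD43-KO, with no overlap. Its log2 fold change was 0.29 ± 0.07 (SE), with an adjusted p of 0.192 in edgeR and 0.0060 in DESeq2. The cohesin ring genes Rad21 and Stag2 were the most abundant of the list, at log2 fold changes of -0.01 and 0.01.

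Of 21 DNA polymerase and lagging strand genes, 10 lay above 0 and 11 below, with a median of -0.01, and 3 were higher and 1 lower at the unadjusted threshold. Pole, the catalytic subunit of the polymerase that the CTF18 module contacts, was chosen after its values were seen. It averaged 51.5 ± 4.03 CPM over the Vec tumours (SD, n = 4) and 67.3 ± 11.2 CPM over the CD43-KO tumours (SD, n = 5). Its log2 fold change of 0.385 was the highest of the list, with an edgeR adjusted p of 0.254. Neither edgeR nor DESeq2 called Pole at an adjusted p under 0.05. Pold4, a small subunit of DNA polymerase delta, was called lower by DESeq2 and not by edgeR. It had 29.5 ± 4.43 CPM in Vec (SD, n = 4) against 20.7 ± 3.18 CPM in CD43-KO (SD, n = 5), a log2 fold change of -0.51 ± 0.13 (SE), with an adjusted p of 0.192 in edgeR and 0.0319 in DESeq2. The abundant genes of the list were Rpa1, of the single-strand binding protein, and the ligase Lig1, with log2 fold changes of 0.10 and -0.11.

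Of 24 origin licensing and helicase genes, 18 lay above 0 and 6 below, with a median of 0.07, and 3 were higher and 1 lower at the unadjusted threshold. Recql4, a helicase of replication initiation, had 29.9 ± 3.91 CPM in Vec (SD, n = 4) against 39.0 ± 3.22 CPM in CD43-KO (SD, n = 5), without overlap. Its adjusted p was 0.202 in edgeR and 0.0440 in DESeq2. The helicase subunits Mcm5 and Mcm6, the most abundant of the list, had log2 fold changes of -0.08 and -0.05.

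Of 20 replication and cell cycle genes, 11 lay above 0 and 9 below, with a median of 0.02. At the unadjusted threshold 3 were higher and 1 lower, and no gene was free of overlap, beside 5.59% of all genes tested. Top2a and Mki67, 2 markers of dividing cells, had 686 ± 59.4 and 335 ± 63.9 CPM in Vec (SD, n = 4) against 814 ± 69.1 and 389 ± 77.1 CPM in CD43-KO (SD, n = 5). The log2 fold changes were 0.25 and 0.21, and the adjusted p of Top2a in edgeR was 0.291. Apart from Pcna, Rad21, Stag2, Rpa1, Lig1, Mcm5, Mcm6, Top2a and Mki67, the list genes named here were chosen after their values were seen.

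**Figure D4:**
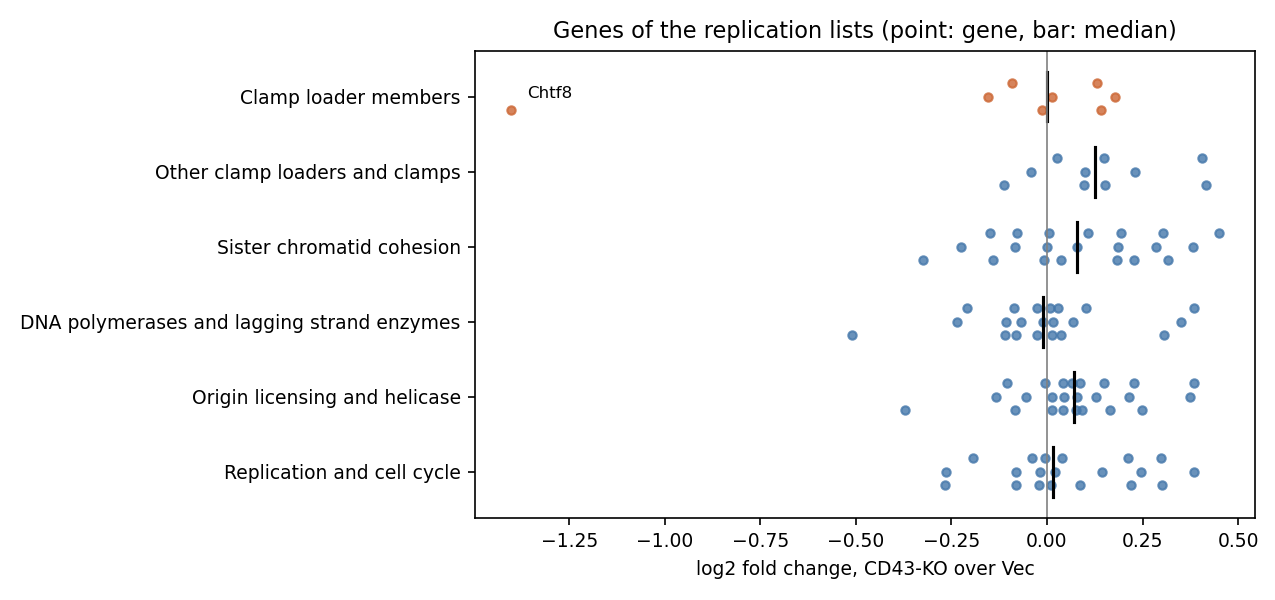
Log2 fold change (CD43-KO over Vec, edgeR) of each tested gene of the 8 clamp loader genes (orange) and of the 5 lists (blue), with a point per gene and a bar at each median. Chtf8 stands apart at -1.40, and the medians of the 5 lists lie between -0.01 and 0.12, beside 0.03 over all genes tested.

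Genes with a mean of at least 1 CPM were ranked by Pearson's r of their log2 CPM with that of Chtf8 over the 9 tumours. Of 14409 such genes, 1148 were skipped for names of predicted genes, clones, pseudogenes, microRNAs or dates. The ranked genes that followed Chtf8 most closely moved by much smaller steps. These were Fibp (r = 0.95), the cell cycle inhibitor gene Cdkn2d (0.93), the mitochondrial deacetylase gene Sirt3 (0.92), Vmac (0.91) and the secreted glycoprotein gene Stc1 (0.91). Fibp had 35.4, 36.6, 35.3 and 39.8 CPM in Vec against 30.3, 34.7, 30.7, 30.5 and 28.5 CPM in CD43-KO replicates 1 to 5. Its Vec mean was 1.23-fold that of the 4 low tumours, against 3.95-fold for Chtf8.

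In the opposite direction the 3 lowest r belonged to Slfn4, an interferon-responsive gene of myeloid cells, and to 2 copy names of it (r = -0.95), whose counts are uncertain because reads may be shared between them. Slfn4 had 3.16, 3.26, 3.56 and 4.51 CPM in Vec against 7.73, 4.36, 7.59, 10.5 and 10.9 CPM in CD43-KO replicates 1 to 5. Chtf8 values form 2 clusters of tumours, so r over 9 tumours mainly measures how a gene separates them. With Spearman's rho in place of r, 0 of the 8 genes named by this rule were the same. The other clamp loader genes had r between -0.66 (Rfc1) and 0.27 (Rfc2) with Chtf8.

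**Figure D5:**
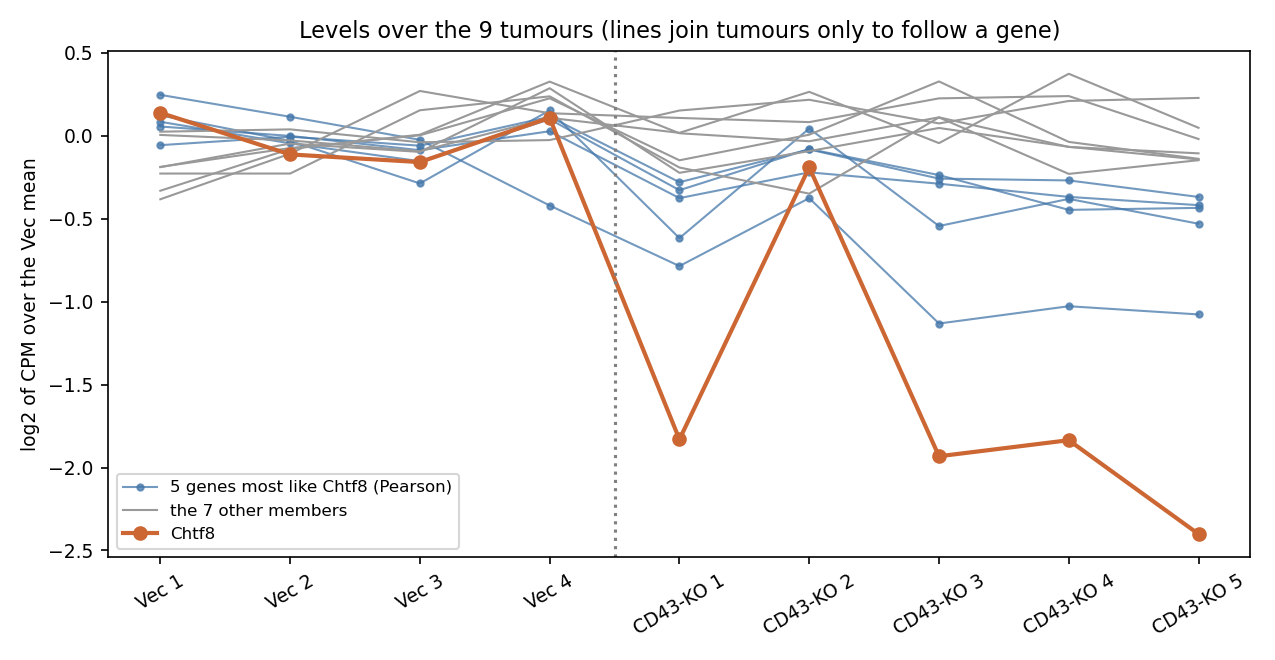
Log2 ratio of the CPM in each of the 9 tumours to the Vec mean, for Chtf8 (orange), the 5 ranked genes with the highest r (blue) and the other 7 clamp loader genes (grey). In CD43-KO replicates 1, 3, 4 and 5 Chtf8 lies between -2.40 and -1.83, below every other gene drawn, and at -0.19 in replicate 2.

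Total counts ranged from 60751738 to 72114385 in Vec and from 44814061 to 62194418 in CD43-KO. Spn, the targeted gene, ranged from 41.0 to 53.8 CPM in Vec and from 6.81 to 33.6 CPM in CD43-KO, without overlap. Its log2 fold change was -0.93 ± 0.36 (SE), with an adjusted p of 0.280 in edgeR. Only the MC38 cells lacked CD43, and the part of host cells in the Spn levels was not tested. CD43-KO replicate 2, where Chtf8 was high, had the highest Spn of its group at 33.6 CPM. It also had the highest summed level of 6 fibroblast markers, 3944 CPM, where the rest of its group had 1457 to 2803 CPM and Vec had 2238 to 3543 CPM. The 5 endothelial markers summed to 115.9 CPM in that tumour, where the rest of its group had 50.1 to 95.4 CPM and Vec had 63.5 to 76.5 CPM. The 9 leukocyte markers summed to 5391 CPM there and to 2240 to 4097 CPM in Vec. Their CD43-KO range was 2202 to 8687 CPM, with the highest sum in replicate 3. None of these markers was at 0 in all tumours, and their part in the Chtf8 levels was not tested. In CD43-KO replicate 3, 7 skeletal muscle markers summed to 1116 CPM and 6 fat markers to 482 CPM, against at most 116 and 32.1 CPM in any other tumour. The 7 epithelial markers summed to 8.12 to 16.1 CPM over all tumours, with Krt8, Krt18 and Cldn7 too low to be tested.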

How the data were processed

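RNA-seq of 9 tumours was analysed from the whole-number counts per gene name that the authors deposited, 1 table per tumour, per the file headers. HISAT2 2.1.0, StringTie 1.3.5, DESeq2 and the build GRCm38 are named in the submitters' processing notes, and the counting step is not given in the sources used here. Of 42454 names, 18243 passed filterByExpr (minimum count 10, minimum total count 15). Counts were scaled by TMM and tested with edgeR 4.0.16 (R 4.3.3, quasi-likelihood F test, robust, no covariate), and p was adjusted over all genes by Benjamini-Hochberg, with calls at 0.05. DESeq2 1.42.0, limma 3.58.1 (voom), other scalings and filters, and leaving out each tumour were alternatives. The script was tested on simulated data. A log2 fold change above 0 is higher in CD43-KO. Exact permutation tests used all 126 splits of the tumours (smallest p 0.00794). Replicate numbers follow the order of deposition.

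The text names the 8 members, the 5 named genes on each side of Chtf8 and any overlapping it. It also names the 5 highest and 3 lowest correlations with Chtf8, genes sharing its shape, and genes of the lists. From the tested genes of the lists come abundant ones and some others. The others had an unadjusted edgeR p under 0.05, a call by DESeq2 or voom, or no overlap between the groups. For the correlations, names of predicted genes, clones, pseudogenes, microRNAs and dates were skipped. The members and lists were chosen with earlier results of these data known. Gene positions came from GENCODE M21 and RefSeq GRCm38.p6. Dscc1 and Rfc2 had no promoter window. Of all names, 26 had been turned into dates and 2346 carried a copy suffix.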

Additional observations from a re-analysis of the deposited data

Results flagged for a closer look

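In 26 genes (the members and others named), each group of tumours was searched for a tumour set far apart from the rest, over 52 groups, and chance gives about 1 in 20 groups. The search found 3, of which the first restates how the members were chosen, since Chtf8 was picked for its pattern with replicate 2 apart, and is no count against chance. Chtf8 in CD43-KO replicate 2 stood apart at 177.6 CPM, with the next CD43-KO tumour at 56.96 CPM, a gap of 0.866 of the group's range. Rfc5 in CD43-KO replicate 3 stood at 79.1 CPM with the next at 63.3 CPM, a gap of 0.711 of the range. Pdf in Vec replicate 4 stood at 84.0 CPM with the next at 69.8 CPM, a gap of 0.841 of the range.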

How the results depend on the processing

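None of the partners of Chtf8 and none of its neighbours was called in any alternative. For Chtf8 itself, chosen for its difference, only the size of the difference is given. The Chtf8 log2 fold change ranged from -1.53 to -1.31 under other scalings, filters and tools, and from -1.98 (without CD43-KO replicate 2) to -1.23 without 1 tumour. Over all genes, against 0 and 0 in edgeR, DESeq2 called 247 higher and 365 lower, voom called 165 and 332, and the fit without a filter called 0 and 1. Leaving out 1 tumour gave 0 to 8 higher and 0 to 21 lower, with 8 and 21 without Vec replicate 3, 1 higher without Vec replicate 2 and 1 lower without CD43-KO replicate 2.

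In the lists, voom called 1 clamp gene higher (Hus1), 3 cohesion genes higher (Clspn, Wdhd1 and Espl1), 1 polymerase gene higher (Pole) and 1 lower (Pold4), and 1 origin gene higher (Recql4). DESeq2 called 2 cohesion genes higher, 1 polymerase gene lower and 1 origin gene higher. With Spearman's rho, 0 of the 8 genes most like Chtf8 were shared.

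Some log2 fold changes near 0 changed sign. With library totals alone, Rfc3 was at 0.0797, Zfp90 at 0.0331 and Tango6 at 0.0216, in a scaling that moved the median of all genes by 0.085, and with voom Rfc3 was at 0.0939. Without 1 tumour, Rfc2 ranged from -0.163 to 0.0094, Rfc3 from -0.122 to 0.106, Rfc5 from -0.0843 to 0.0887, Cdh1 from -0.0049 to 0.272, Tango6 from -0.165 to 0.0129 and Sntb2 from -0.0251 to 0.182. In mean log2 CPM, a measure apart from the edgeR log2 fold change, CD43-KO minus Vec was 0.0035 for Rfc3 and 0.0102 for Rfc5. After the cell cycle list was subtracted, these differences were -0.0503 and -0.0435, since the subtraction lowers every member by the same 0.0538. The cause of the other changes of sign was not tested. No paired analysis was possible because the replicate numbers come from the order of deposition and link no tumours across the groups. Since the counting step is not given, every Chtf8 value is taken as a level of the locus as a whole.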

Other observations

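Among 2032 genes with a mean of at least 100 CPM, the highest tumour exceeded the lowest by a median of 1.55-fold, and 14 genes had a ratio at least as large as the 5.81-fold of Chtf8. The widest were Chil3, a chitinase-like protein gene of macrophages (182-fold), and Jund, a subunit gene of the AP-1 transcription factor (106-fold). In 10 of the 14, among them the chemokine gene Ccl8 and the complement gene C3, the highest tumour was CD43-KO replicate 3. That tumour had the highest summed leukocyte, muscle and fat markers of all tumours, and their part in these levels was not tested. Jund was highest in Vec replicate 4 at 203 CPM and lowest in Vec replicate 3 at 1.92 CPM, so its spread lay inside the Vec group. Chtf8 was the only one of the 15 genes whose groups did not overlap. It had been chosen for its difference between the groups, so this describes the choice and tests nothing. Of all genes tested, 1019 (5.59%) were free of overlap in either direction.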
